A study of Caenorhabditis elegans with 51 samples.

Results

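The genes described here are the UDP-glucuronosyltransferase (ugt) genes of *Caenorhabditis elegans*, taken as every row whose gene symbol begins with ugt- and a number. There were 58 such genes among the 14033 of the first experiment and 61 among the 14596 of the second, where *ugt-3*, *ugt-34* and *ugt-42* were listed in addition. The RNA of whole prefertile young adult worms, grown at 20 °C on agar plates with OP50 bacteria and given no treatment, was sequenced to ask how gene expression differed between long-lived or antioxidant-deficient mutants and wild-type (WT) worms. In the first experiment, 6 libraries each came from *nuo-6(qm200)*, *isp-1(qm150)*, *clk-1(qm30)* and *daf-2(e1370)* worms, 3 each from *sod-1* and *prdx-2* worms, 3 bear the label *ctl-1*, and 6 came from WT (N2) worms. In the second, 6 libraries came from *sod-2(ok1030)* worms and 6 from WT worms. The alleles of *sod-1*, *prdx-2* and *ctl-1* are not given in the sources used here. The products of *clk-1* (ubiquinone synthesis), *isp-1* (the iron-sulfur protein of complex III) and *nuo-6* (a complex I subunit) serve mitochondrial respiration, *daf-2* encodes the insulin/IGF-1 receptor, and *sod-1*, *sod-2*, *prdx-2* and *ctl-1* encode enzymes that remove superoxide or hydrogen peroxide.

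UDP-glucuronosyltransferases sit in the membrane of the endoplasmic reticulum and join a sugar from a UDP-sugar to small fat-soluble molecules, which makes them easier to excrete. They act after the cytochrome P450 enzymes, which add the group that receives the sugar, and before the ATP-driven exporters that carry the conjugate out of the cell. In worms, many of the conjugates that have been identified carry glucose rather than glucuronic acid, the family is much larger than in mammals, and the acceptor molecule of most of its members is not known, so no role is given here for single members.

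Values are normalized CPM (the reads of a gene relative to all reads of its library, after the authors' scaling between libraries). The depth was 21434437 to 28805205 reads per library in the first experiment and 22586580 to 33412986 in the second. The transcripts of *clk-1*, *sod-1*, *prdx-2* and *sod-2* were reduced in the mutant of the same name (log2 fold changes of -1.12, -5.09, -3.09 and -6.85). Those of *nuo-6*, *isp-1* and *daf-2* were not (0.52, 0.27 and 0.82), and for these mutants the transcript does not check the label. In the libraries labelled *ctl-1* the *ctl-1* transcript differed from WT by a log2 fold change of 0.04, whereas its neighbour *ctl-3* was lower (log2 fold change -3.27), so these libraries are named by their label throughout. The WT libraries of both experiments matched one another singly in how they deviated from their group means (correlations of 0.69 to 0.92 over 13911 genes for 6 pairs, against -0.74 to 0.53 for the other 30), and the comparison with *sod-2* is therefore not independent of the others. The summed level of 4 yolk genes differed widely within groups. It was 8631 normalized CPM in *nuo-6* replicate 2, against 54911 to 92856 in the other 5 *nuo-6* libraries, and 3588 to 5923 in *daf-2* replicates 1, 3 and 4, against 25394 to 51695 in the other 3. In *sod-2* replicates 2, 4 and 5 it was 915, 2926 and 4798, against 11946 to 23382 in the other 3.

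The most abundant members in WT worms were *ugt-22* and *ugt-47*. Per kb of exon, *ugt-22* had 73.1 ± 28.1 normalized CPM and *ugt-47* had 72.6 ± 17.5 (SD, n = 6), which do not differ beyond their spread. They were followed by *ugt-62* (53 ± 8.19) and by *ugt-64*, *ugt-26* and *ugt-23* (38.7 ± 5.06, 34.8 ± 11.8 and 34 ± 5.98), the last 3 of which lie within the spread of one another. At the low end, *ugt-27*, *ugt-18*, *ugt-15* and *ugt-56* had 0.150 ± 0.109, 0.200 ± 0.130, 0.225 ± 0.0596 and 0.348 ± 0.0863 normalized CPM per kb. Only *ugt-27* and *ugt-15* averaged under 1 normalized CPM over the first experiment, 4 members did so in the second, and all 58 and 61 entered the tests. Summed over the members, the median level was 1719 (1429.7 to 2020.4) normalized CPM in *isp-1* worms, 1639 (1286 to 2018) in *clk-1* worms, 2055 (1436 to 2472) in *nuo-6* worms and 1255 (1074 to 1329.6) in *daf-2* worms. It was 1079.7 (1066 to 1206) in *sod-1* worms, 887 (886 to 963) in the libraries labelled *ctl-1* and 1179 (1129.7 to 1471) in *prdx-2* worms, against 1346 (1035 to 1648) in WT worms. As a share of each library, the sum was 0.0981% to 0.1131% in the libraries labelled *ctl-1* and 0.1098% to 0.1502% in WT worms, and overlapped. In the second experiment the median sum was 1729 (1180.0 to 2091) normalized CPM in *sod-2* worms and 1699 (1205 to 1855) in WT worms. The most abundant member was not the same in every strain: *ugt-62* led in all 6 *isp-1*, all 6 *nuo-6*, all 3 *prdx-2* and all 6 *sod-2* libraries, whereas *ugt-22* or *ugt-47* led in all 6 WT libraries of each experiment.

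**Figure D1:**
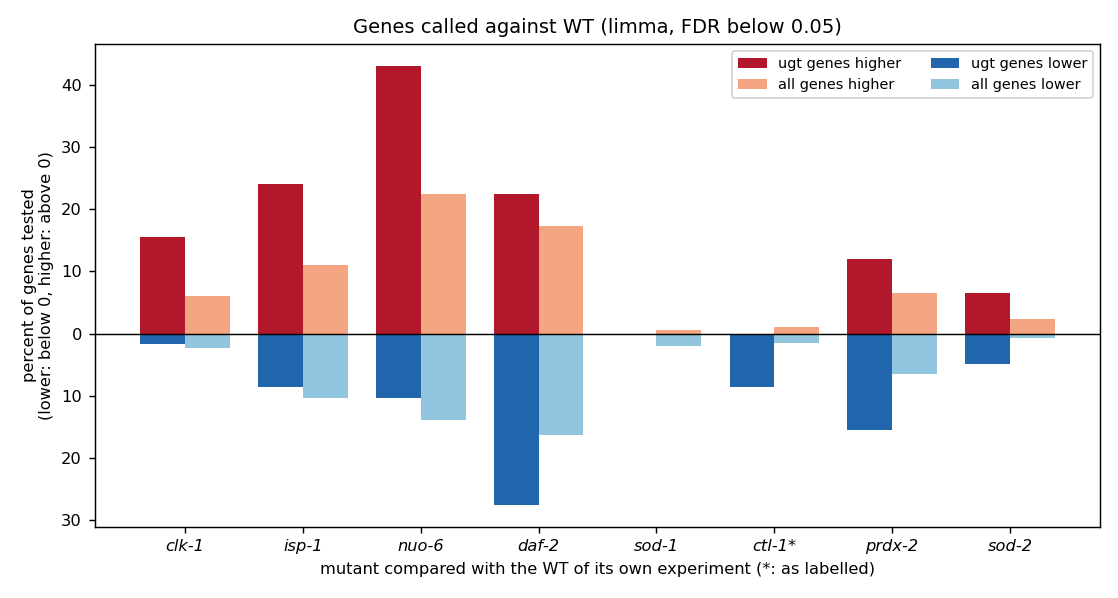
Percent of the ugt genes (dark bars; 58 in the first experiment, 61 for *sod-2*) and of all genes tested (pale bars; 14033, 14596 for *sod-2*) that were called higher (above 0) or lower (below 0) in each mutant than in its WT libraries by limma at an FDR below 0.05. The share of ugt genes called higher in *nuo-6* worms was 43.1%, against 22.5% of all genes, and no ugt gene was called in *sod-1* worms.

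In the mutants of mitochondrial respiration (*isp-1*, *clk-1* and *nuo-6*, here the respiratory mutants), most of the calls were increases. In *clk-1* worms 9 of 58 members were higher and 1 was lower than in WT worms (all genes: 6% higher, 2.27% lower; limma, FDR below 0.05). In *isp-1* worms 14 were higher and 5 lower (all genes: 11% and 10.3%), and in *nuo-6* worms 25 were higher and 6 lower (all genes: 22.5% and 14%). The median log2 fold change of the members was 0.10 in *isp-1*, 0.09 in *clk-1* and 0.54 in *nuo-6* worms, beside medians over all genes of -0.01, -0.01 and 0.02. The libraries of a mutant all lay above the WT libraries for 11, 7 and 13 members in *isp-1*, *clk-1* and *nuo-6* worms (all genes: 7.69%, 4.43% and 9.38%), and all below for 3, 1 and 2 (6.19%, 1.7% and 5.13%). These comparisons share their 6 WT libraries. In whole worms, fewer cells of a type and less RNA per cell cannot be told apart. The count of decreases depended on single libraries, and the shares of all genes called in these fits are not given here. In *clk-1* it was 0 without WT replicate 11 and 2 without WT replicate 7, 8 or 10 or *clk-1* replicate 1. In *isp-1* it was 3 without WT replicate 9 or 11 or *isp-1* replicate 5, and 8 without WT replicate 12.

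**Figure D2:**
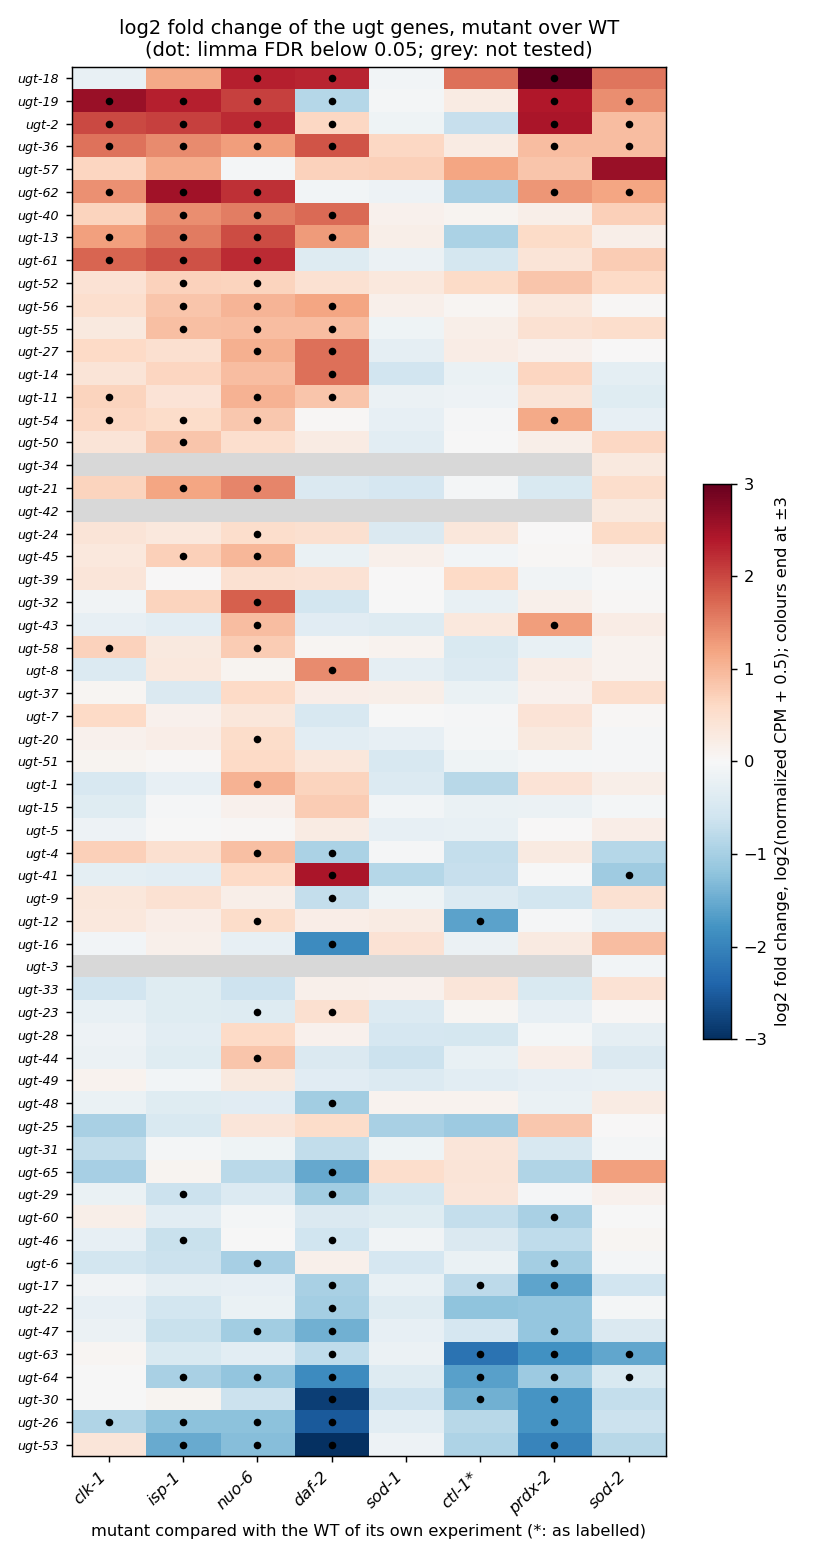
Log2 fold change of each ugt gene (rows, ordered by their mean) in each mutant over the WT libraries of its own experiment (columns), on the log2(normalized CPM + 0.5) scale with colours ending at ±3. A dot marks a call by limma at an FDR below 0.05 and grey a gene not tested; *ugt-19*, *ugt-2*, *ugt-36* and *ugt-62* carry 5 or 6 dots each, and the *sod-1* column carries none.

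The members called higher in *isp-1*, *clk-1* and *nuo-6* worms alike were *ugt-2*, *ugt-13*, *ugt-19*, *ugt-36*, *ugt-54*, *ugt-61* and *ugt-62*. For *ugt-19* (WBGene00019515, chrIV:6076686-6079952, WBcel235), the libraries held 32.9 to 72.6 normalized CPM (median 56.3) in *isp-1*, 33.8 to 102 normalized CPM (median 59.2) in *clk-1* and 17.7 to 80.7 normalized CPM (median 45.2) in *nuo-6* worms, against 8.85 to 11.4 (median 10.1) in WT worms. Every library of the 3 mutants lay above every WT library. The log2 fold change was 2.34 ± 0.26 (SE, limma adjusted p = 2.1e-08) in *isp-1*, 2.59 ± 0.26 (SE, limma adjusted p = 3.0e-09) in *clk-1* and 2.06 ± 0.26 (SE, limma adjusted p = 1.2e-07) in *nuo-6* worms. Its level was also raised in *prdx-2* worms (44.4, 59.6 and 63.3 normalized CPM; log2 fold change 2.39 ± 0.32 SE, limma adjusted p = 2.3e-06). In *daf-2* worms it fell, with 3.35 to 6.90 normalized CPM (median 6.06), all below the WT libraries (log2 fold change -0.85 ± 0.26 SE, limma adjusted p = 0.011).

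For *ugt-2* (WBGene00007073, chrV:10398801-10401307), the libraries held 23.2 to 49.4 normalized CPM (median 37.3) in *isp-1*, 23.5 to 46.6 normalized CPM (median 32.9) in *clk-1* and 24.7 to 53.4 normalized CPM (median 42.4) in *nuo-6* worms, against 7.04 to 9.83 (median 8.08) in WT worms. The groups again did not overlap with WT. The log2 fold changes were 2.06 ± 0.21 (SE, limma adjusted p = 5.3e-09) in *isp-1*, 1.98 ± 0.21 (SE, limma adjusted p = 2.1e-08) in *clk-1* and 2.23 ± 0.21 (SE, limma adjusted p = 4.5e-10) in *nuo-6* worms. In *prdx-2* worms the 3 libraries held 31.6, 46.2 and 70.3 normalized CPM (log2 fold change 2.45 ± 0.26 SE, limma adjusted p = 3.1e-08). They overlapped with the libraries of the respiratory mutants, and *prdx-2* worms were not tested against these mutants. The increase in *daf-2* worms was smaller and overlapped with WT (6.96 to 20.7 normalized CPM, median 13.2; log2 fold change 0.62 ± 0.21 SE, limma adjusted p = 0.024), and it was not called without *daf-2* replicate 5 (0.49, adjusted p = 0.076).

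For *ugt-62* (WBGene00010904, chrIII:4537281-4540623), among the most abundant members in WT worms, the libraries held 367 to 698 normalized CPM (median 529) in *isp-1*, 156 to 334 normalized CPM (median 244) in *clk-1* and 160.4 to 829 normalized CPM (median 492) in *nuo-6* worms, against 67.6 to 103.6 (median 91.3) in WT worms. All were above WT, and the *nuo-6* libraries were the most spread. The log2 fold changes were 2.52 ± 0.34 (SE, limma adjusted p = 1.2e-06) in *isp-1*, 1.37 ± 0.34 (SE, limma adjusted p = 0.0079) in *clk-1* and 2.19 ± 0.34 (SE, limma adjusted p = 4.7e-06) in *nuo-6* worms. For *ugt-61* (WBGene00018206, chrV:4742422-4745373), the values were 28.4 to 51.8 normalized CPM (median 40.4) in *isp-1*, 23.2 to 46.3 normalized CPM (median 38) in *clk-1* and 26.2 to 73.5 normalized CPM (median 59.6) in *nuo-6* worms, against 6.62 to 11.49 (median 10.7) in WT worms. Here too no mutant library overlapped with WT, with log2 fold changes of 1.91 ± 0.27 (SE, limma adjusted p = 1.9e-06), 1.74 ± 0.27 (SE, limma adjusted p = 1.8e-05) and 2.25 ± 0.27 (SE, limma adjusted p = 3.9e-08) in *isp-1*, *clk-1* and *nuo-6* worms. In *daf-2* worms neither gene was called (log2 fold change -0.09 ± 0.34 SE, limma adjusted p = 0.86 for *ugt-62* and -0.38 ± 0.27 SE, limma adjusted p = 0.29 for *ugt-61*).

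**Figure D3:**
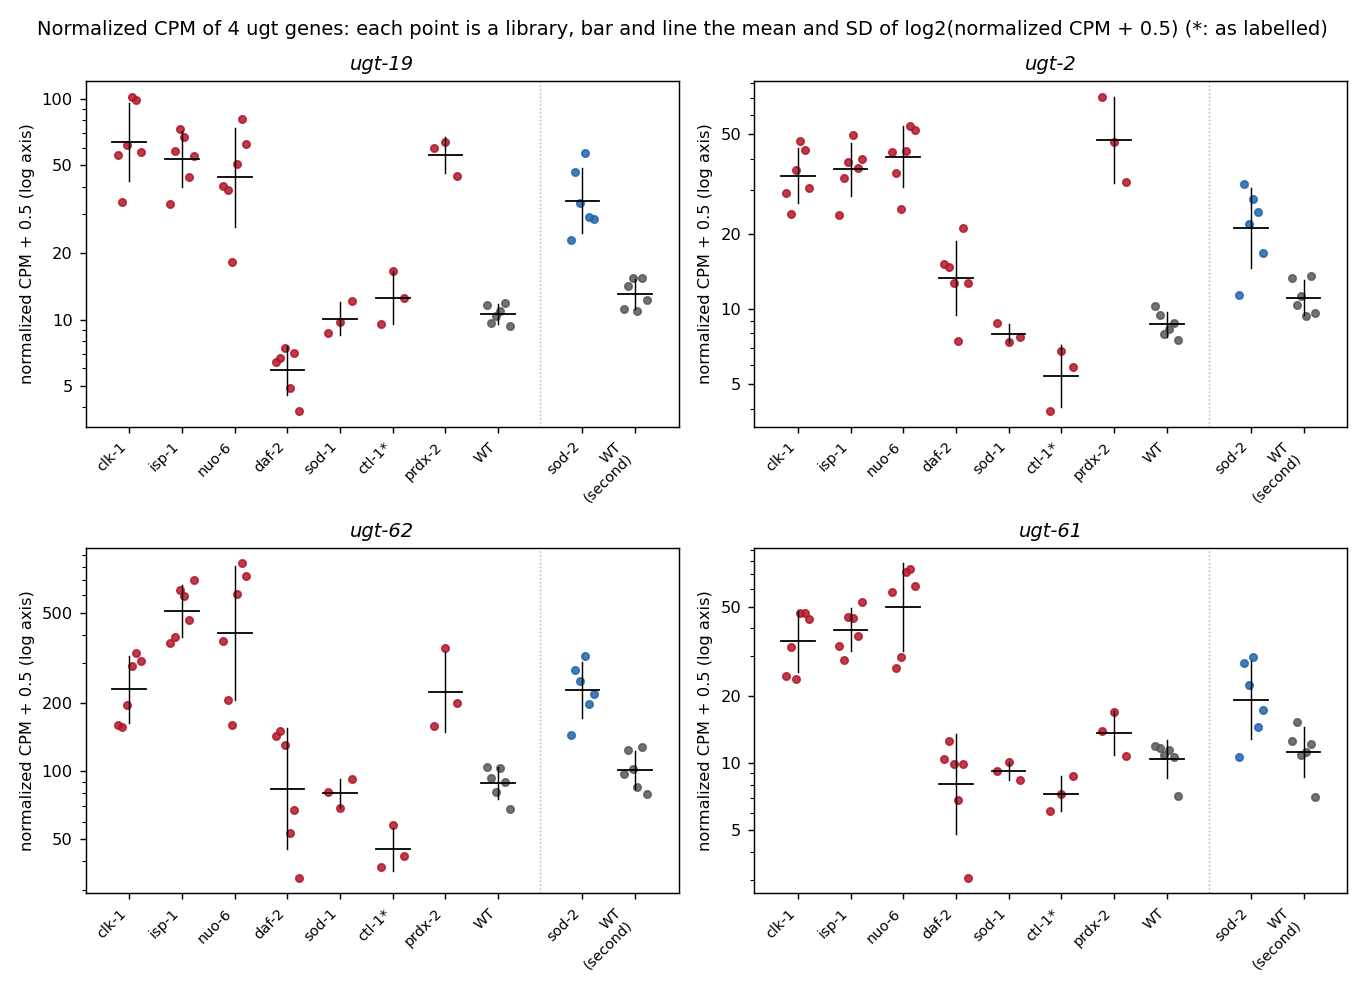
Normalized CPM + 0.5 (log axis) of *ugt-19*, *ugt-2*, *ugt-62* and *ugt-61* in each library, by strain, with the second experiment right of the dotted line. In the 4 panels every *isp-1*, *clk-1* and *nuo-6* library lies above the WT libraries, and the 6 *daf-2* libraries of *ugt-19* lie below them.

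A low-level member, *ugt-36* (WBGene00017315, chrV:7167009-7169281), was called higher in 6 mutants, including *daf-2*. Its libraries held 1.94 to 4.03 normalized CPM (median 2.81) in *isp-1*, 2.26 to 5.91 normalized CPM (median 3.31) in *clk-1*, 1.37 to 3.23 normalized CPM (median 2.76) in *nuo-6* and 3.46 to 5.31 normalized CPM (median 4.03) in *daf-2* worms, against 0.238 to 1.31 (median 0.855) in WT worms. The 4 mutants did not overlap with WT, and the log2 fold changes were 1.42 ± 0.22 (SE, limma adjusted p = 7.3e-06), 1.64 ± 0.22 (SE, limma adjusted p = 1.1e-06), 1.25 ± 0.22 (SE, limma adjusted p = 2.0e-05) and 1.88 ± 0.22 (SE, limma adjusted p = 1.7e-08) in *isp-1*, *clk-1*, *nuo-6* and *daf-2* worms. In *prdx-2* worms (1.12, 2.40 and 2.44 normalized CPM) it overlapped with WT (log2 fold change 0.93 ± 0.26 SE, limma adjusted p = 0.016) and was not called without *prdx-2* replicate 1 or 2, or when *prdx-2* and WT libraries were fitted alone (adjusted p = 0.076). Of the other members, *ugt-13* was called in *daf-2* (1.29), *nuo-6* (1.97), *isp-1* (1.55) and *clk-1* worms (1.24). Calls in *daf-2*, *nuo-6* and *isp-1* but not *clk-1* worms were made for *ugt-40* (1.69, 1.53 and 1.39), *ugt-55* (0.94, 0.93 and 0.91) and *ugt-56* (1.19, 1.01 and 0.82). The remaining increases were those of *ugt-54* in the 3 respiratory mutants (0.81 in *nuo-6*, 0.55 in *isp-1* and 0.61 in *clk-1* worms), of *ugt-21*, *ugt-45* and *ugt-52* in *nuo-6* and *isp-1* worms, of *ugt-11* and *ugt-58* in *nuo-6* and *clk-1* worms, and of *ugt-50* in *isp-1* worms (0.83).

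Of the members called higher in *nuo-6* and in neither *isp-1* nor *clk-1* worms, *ugt-18* and *ugt-32* had the largest changes, and both were low in WT worms. For *ugt-18* the *nuo-6* libraries held 1.47 to 58 normalized CPM (median 1.92), against 0.120 to 0.675 (median 0.309) in WT worms (log2 fold change 2.33 ± 0.63 SE, limma adjusted p = 0.0037). The highest was *nuo-6* replicate 2, the *nuo-6* library with the lowest yolk sum. Without it the log2 fold change was 1.56 (adjusted p = 0.015), and on reads with edgeR it was 5.03. For *ugt-32* the *nuo-6* libraries held 0.793 to 6.25 normalized CPM (median 4.70), against 0.601 to 0.867 (median 0.781) in WT worms (log2 fold change 1.79), and the groups overlapped. Smaller increases were called for *ugt-1* (1.04), *ugt-27* (1.06), *ugt-43* (0.93), *ugt-4* (0.91), *ugt-44* (0.84), *ugt-12* (0.56), *ugt-20* (0.56) and *ugt-24* (0.53). For *ugt-4* the libraries held 4.58 to 17.5 normalized CPM (median 7.34) in *nuo-6* worms, against 2.52 to 7.33 (median 3.71) in WT worms, and overlapped. That of *ugt-12* (31.9 to 86.2 normalized CPM, median 71.2 in *nuo-6* worms, against 33.4 to 63.2, median 41.1 in WT worms; adjusted p = 0.024) was lost without WT replicate 7, 8 or 12 or *nuo-6* replicate 1, 4 or 5 and in a fit of *nuo-6* and WT libraries alone (adjusted p = 0.084).

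The largest decreases in the respiratory mutants were those of *ugt-26*, *ugt-53* and *ugt-64*. For *ugt-26* (WBGene00015695, chrI:4721131-4723982), the libraries held 20.8 to 35.7 normalized CPM (median 27) in *isp-1*, 25 to 47.1 normalized CPM (median 34.6) in *clk-1* and 19.7 to 35.3 normalized CPM (median 28.1) in *nuo-6* worms, against 39.3 to 106 (median 66.5) in WT worms. Only the *clk-1* libraries overlapped with WT, and the log2 fold changes were -0.91 ± 0.25 (SE, limma adjusted p = 0.017) in *clk-1*, -1.22 ± 0.25 (SE, limma adjusted p = 5.3e-04) in *isp-1* and -1.23 ± 0.25 (SE, limma adjusted p = 2.1e-04) in *nuo-6* worms. Without WT replicate 11 the decrease in *clk-1* worms was not called (-0.76, adjusted p = 0.065). For *ugt-53* (WBGene00020182, chrV:2849343-2852028), the libraries held 1.52 to 4.09 normalized CPM (median 3.50) in *isp-1* and 2.59 to 7.43 normalized CPM (median 3.14) in *nuo-6* worms, against 4.96 to 15.9 (median 10.2) in WT worms. The *isp-1* libraries were all below WT and those of *nuo-6* overlapped with it, and the log2 fold changes were -1.5 ± 0.34 (SE, limma adjusted p = 0.0017) in *isp-1* and -1.27 ± 0.34 (SE, limma adjusted p = 0.0038) in *nuo-6* worms. In *clk-1* worms *ugt-53* was not called, and its libraries spread widely (3.46 to 29.1 normalized CPM, median 18.6; log2 fold change 0.36 ± 0.34 SE, limma adjusted p = 0.61).

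For *ugt-64* (WBGene00015577, chrV:3503080-3506352), which overlaps C07G3.10 on the opposite strand, the values were 21.2 to 41.3 normalized CPM (median 36.9) in *isp-1* and 16.5 to 49.99 normalized CPM (median 32.9) in *nuo-6* worms, against 59.6 to 80.1 (median 65.3) in WT worms. Both mutants lay below WT, with a log2 fold change of -0.98 ± 0.21 (SE, limma adjusted p = 8.2e-04) in *isp-1* and of -1.18 ± 0.21 (SE, limma adjusted p = 3.1e-05) in *nuo-6* worms. The *clk-1* libraries (43.1 to 99.3 normalized CPM, median 70.5) lay on both sides of the WT range (log2 fold change -0.01 ± 0.21 SE, limma adjusted p = 0.98). The other decreases were those of *ugt-46* (-0.67) and *ugt-29* (-0.65) in *isp-1* worms and of *ugt-47* (-1.04), *ugt-6* (-1.0) and *ugt-23* (-0.38) in *nuo-6* worms. For *ugt-23* the libraries held 32.4 to 60.6 normalized CPM (median 46.4) in *nuo-6* worms, against 46.8 to 74 (median 61.2) in WT worms (adjusted p = 0.035), and the call was lost without WT replicate 9, 10 or 11 or *nuo-6* replicate 1 or 3 and in a fit of *nuo-6* and WT libraries alone (adjusted p = 0.11).

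**Figure D4:**
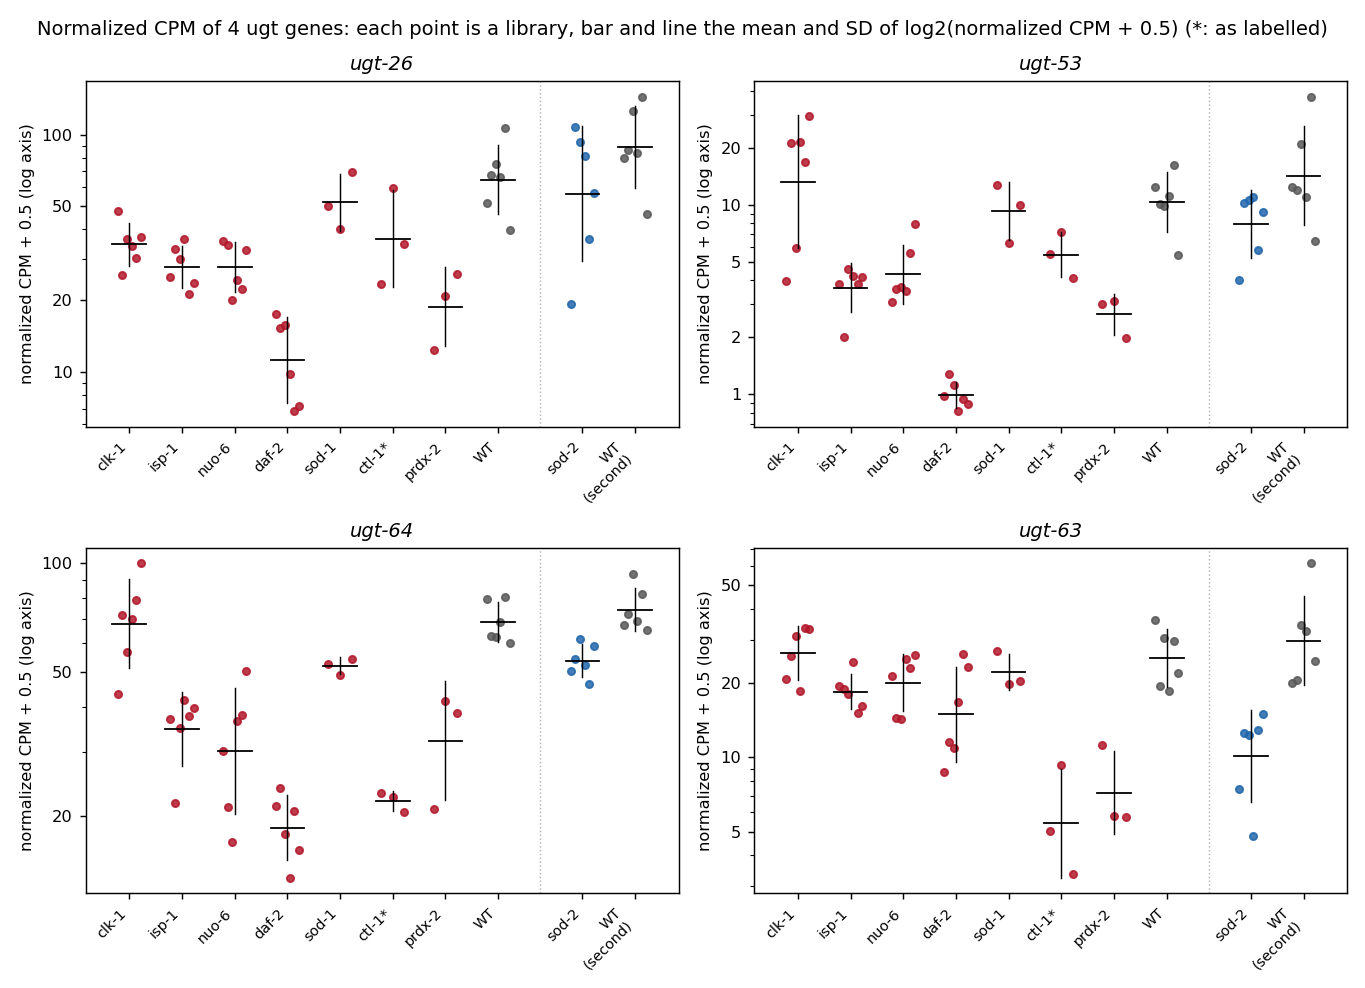
Normalized CPM + 0.5 (log axis) of *ugt-26*, *ugt-53*, *ugt-64* and *ugt-63* in each library, by strain, with the second experiment right of the dotted line. The 6 *daf-2* libraries lie below the WT libraries for *ugt-26*, *ugt-53* and *ugt-64*, and *ugt-63* is below WT in the libraries labelled *ctl-1* and in *prdx-2* and *sod-2* worms.

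In *daf-2* worms increases and decreases were nearly balanced: 13 of 58 members were higher and 16 lower than in WT worms (all genes: 17.4% and 16.3%), with a median log2 fold change of 0.05 beside 0.01 over all genes. The *daf-2* libraries all lay above WT for 7 members and all below for 11 (all genes: 7.24% and 6.78%). The largest increase was that of *ugt-41* (WBGene00017336, chrV:7161068-7163595), with 83.8 to 337 normalized CPM (median 124) in *daf-2* worms, against 15.2 to 40.1 (median 26.8) in WT worms. The groups did not overlap, and the log2 fold change was 2.45 ± 0.29 (SE, limma adjusted p = 3.0e-08). It was 2.19 without the highest library, *daf-2* replicate 6. For *ugt-18* the libraries held 1.05 to 27.7 normalized CPM (median 2.59) in *daf-2* worms, against 0.120 to 0.675 (median 0.309) in WT worms (log2 fold change 2.28 ± 0.63 SE, limma adjusted p = 0.0049), and without the highest, *daf-2* replicate 5, it was 1.71 (adjusted p = 0.022). Beside *ugt-36*, *ugt-13*, *ugt-40*, *ugt-55* and *ugt-56* (above), the increases called were those of *ugt-27* (1.66), *ugt-14* (1.65), *ugt-8* (1.42), *ugt-11* (0.83), *ugt-2* and *ugt-23*. For *ugt-23* the libraries held 70.7 to 98 normalized CPM (median 81.3) in *daf-2* worms, against 46.8 to 74 (median 61.2) in WT worms, and overlapped (log2 fold change 0.48 ± 0.14 SE, limma adjusted p = 0.0083).

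The largest decreases in *daf-2* worms were those of *ugt-53*, *ugt-30* and *ugt-26*. For *ugt-53* the libraries held 0.316 to 0.778 normalized CPM (median 0.462) in *daf-2* worms, against 4.96 to 15.9 (median 10.2) in WT worms (log2 fold change -3.39 ± 0.34 SE, limma adjusted p = 1.3e-09). On reads with edgeR the log2 fold change was -4.35. For *ugt-30* (WBGene00011340, chrV:15121724-15125262), they held 0.569 to 3.61 normalized CPM (median 2.51) in *daf-2* worms, against 12.5 to 22.2 (median 16.9) in WT worms (log2 fold change -2.82 ± 0.29 SE, limma adjusted p = 1.6e-09). For *ugt-26* they held 6.34 to 17.1 normalized CPM (median 12) in *daf-2* worms, against 39.3 to 106 (median 66.5) in WT worms (log2 fold change -2.52 ± 0.25 SE, limma adjusted p = 8.5e-10). In all 3 genes every *daf-2* library was below every WT library. The same held for *ugt-64*, with 13 to 23.5 normalized CPM (median 18.8) in *daf-2* worms, against 59.6 to 80.1 (median 65.3) in WT worms (log2 fold change -1.88 ± 0.21 SE, limma adjusted p = 9.3e-09), for *ugt-16* (-1.88), *ugt-65* (-1.54) and *ugt-47* (-1.44), and for *ugt-19* (above). Both of the most abundant WT members were called lower, *ugt-22* with a log2 fold change of -1.01 and some overlap with WT. For *ugt-4* the libraries held 1.34 to 2.98 normalized CPM (median 1.57) in *daf-2* worms, against 2.52 to 7.33 (median 3.71) in WT worms, and overlapped (log2 fold change -0.95 ± 0.27 SE, limma adjusted p = 0.0066). The decrease of *ugt-63* (8.23 to 25.8 normalized CPM, median 13.7 in *daf-2* worms, against 18.1 to 35.6, median 25.3 in WT worms; log2 fold change -0.75 ± 0.25 SE, limma adjusted p = 0.02) was not called without WT replicate 7, *daf-2* replicate 1 or *daf-2* replicate 3, or in a fit of *daf-2* and WT libraries alone (adjusted p = 0.067). Log2 fold changes of -1.05 to -0.59 were called for *ugt-29*, *ugt-48*, *ugt-17*, *ugt-9* and *ugt-46*. Without *daf-2* replicates 1, 3 and 4, those with the lowest yolk sums (a choice made after seeing the data), 15 members were higher and 16 lower, 25 of them as with all 6 libraries, and *ugt-4*, *ugt-9*, *ugt-23* and *ugt-63* were not called (limma adjusted p = 0.1, 0.22, 0.058 and 0.33). The share of all genes called in that fit is not given here.

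**Figure D5:**
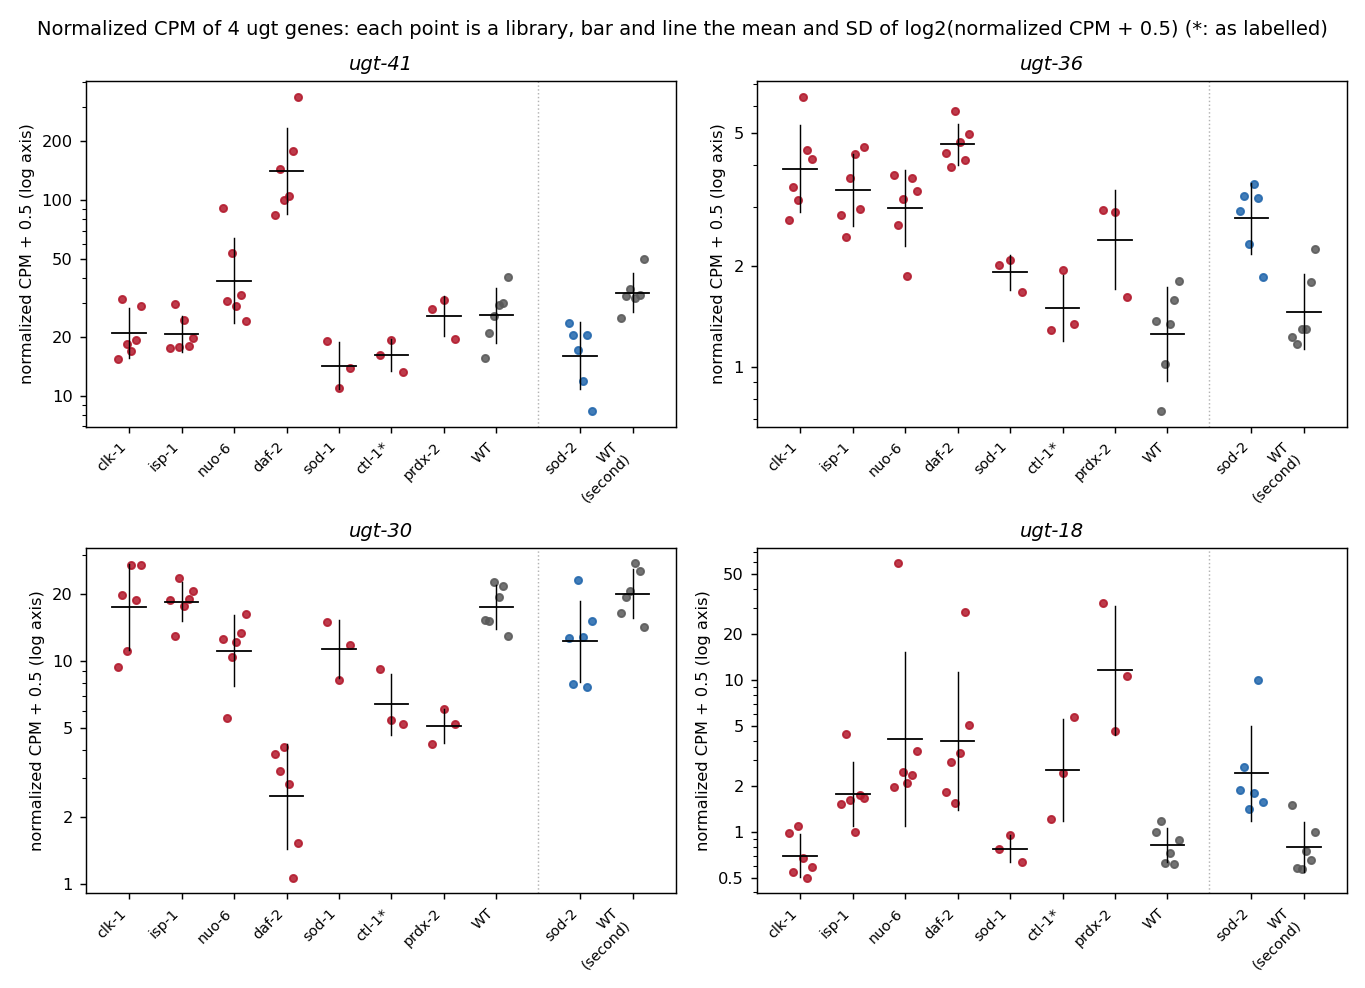
Normalized CPM + 0.5 (log axis) of *ugt-41*, *ugt-36*, *ugt-30* and *ugt-18* in each library, by strain, with the second experiment right of the dotted line. The 6 *daf-2* libraries lie above the WT libraries for *ugt-41*, *ugt-36* and *ugt-18* and below them for *ugt-30*, and single libraries of *ugt-18* reach 58.0 (*nuo-6*) and 31.8 (*prdx-2*) normalized CPM.

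The strains with 6 libraries were also compared with one another in the same fit. Between *isp-1* and *clk-1* worms 4 of 58 members differed (all genes: 3.24%): *ugt-53* (-1.86, adjusted p = 5.9e-04), *ugt-64* (-0.97, adjusted p = 0.0038) and *ugt-58* (-0.40) were lower and *ugt-55* (0.61) higher in *isp-1* worms (limma). The count was 2 without *clk-1* replicate 3 or 5. Between *nuo-6* and *clk-1* worms 15 members differed (all genes: 20.1%), 12 of them higher in *nuo-6* worms (all genes: 12.9%), among them *ugt-18* (2.56), *ugt-32* (1.89), *ugt-1* (1.53) and *ugt-25* (1.36). Between *nuo-6* and *isp-1* worms 10 members differed (all genes: 17.2%), all of them higher in *nuo-6* worms (all genes: 12.2%), with *ugt-1* (1.29), *ugt-43* (1.23) and *ugt-44* (1.21) in the lead. The count was 6 without *isp-1* replicate 1 or 5.

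Between *daf-2* worms and the respiratory mutants, the members that differed numbered 30 against *isp-1*, 38 against *clk-1* and 31 against *nuo-6* worms (all genes: 37.8%, 37.1% and 31.7%). Of these, 22, 24 and 25 were lower in *daf-2* worms (all genes: 18%, 18.8% and 18.4%). The difference of *ugt-19* between *daf-2* and the other mutants was -3.18 ± 0.26 (SE, limma adjusted p = 6.5e-12) against *isp-1*, -3.44 ± 0.26 (SE, limma adjusted p = 9.0e-13) against *clk-1* and -2.90 ± 0.26 (SE, limma adjusted p = 5.7e-11) against *nuo-6* worms on the log2 scale. Likewise, *ugt-2* (-1.44, -1.36 and -1.61), *ugt-61* (-2.29, -2.12 and -2.63) and *ugt-62* (-2.61, -1.46 and -2.29) were lower in *daf-2* worms than in the 3 respiratory mutants. Higher in *daf-2* than in these 3 mutants were *ugt-41* (2.76, 2.75 and 1.85), *ugt-8* (1.10, 1.83 and 1.33), *ugt-6* and *ugt-23*. For *ugt-36*, the differences were 0.45 ± 0.22 (SE, limma adjusted p = 0.093) against *isp-1*, 0.24 ± 0.22 (SE, limma adjusted p = 0.39) against *clk-1* and 0.63 ± 0.22 (SE, limma adjusted p = 0.024) against *nuo-6* worms, of which only the last was called. The decreases of *ugt-26*, *ugt-53* and *ugt-64* in *daf-2* worms were larger than those in *isp-1* and *nuo-6* worms (differences of -1.30 and -1.29 for *ugt-26*, -1.88 and -2.12 for *ugt-53*, -0.90 and -0.70 for *ugt-64*, each called).

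Among the antioxidant mutants of the first experiment, *prdx-2* worms, which lack a peroxiredoxin that removes hydrogen peroxide, had the most ugt genes called. In them 7 of 58 members were higher and 9 lower (all genes: 6.51% and 6.51%), and the libraries all lay above WT for 8 members and all below for 9 (all genes: 9.43% and 10.4%). The decreases numbered 5 without *prdx-2* replicate 1. The highest fold change was that of *ugt-18*, with 4.09, 10.1 and 31.8 normalized CPM in *prdx-2* worms, against 0.120 to 0.675 (median 0.309) in WT worms (log2 fold change 3.83 ± 0.77 SE, limma adjusted p = 9.2e-04). It was 3.09 without *prdx-2* replicate 1 and 4.50 without *prdx-2* replicate 2. Beside *ugt-2*, *ugt-19* and *ugt-36* (above), *ugt-62* was higher, with 157, 201 and 349.8 normalized CPM in *prdx-2* worms, against 67.6 to 103.6 (median 91.3) in WT worms (log2 fold change 1.33 ± 0.42 SE, limma adjusted p = 0.032), although not without WT replicate 9 or 12 or *prdx-2* replicate 2 or 3. The other increases were those of *ugt-43* (1.26) and *ugt-54* (1.13), and *ugt-61* was not called (10.3, 13.4 and 16.5 normalized CPM; log2 fold change 0.38 ± 0.33 SE, limma adjusted p = 0.48).

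The decreases in *prdx-2* worms were led by *ugt-53* (1.48, 2.51 and 2.61 normalized CPM in *prdx-2* worms, against 4.96 to 15.9, median 10.2 in WT worms; log2 fold change -1.97 ± 0.42 SE, limma adjusted p = 0.0017) and *ugt-63* (WBGene00015449, chrV:5108180-5110772), with 5.25, 5.26 and 10.7 normalized CPM in *prdx-2* worms, against 18.1 to 35.6 (median 25.3) in WT worms (log2 fold change -1.81 ± 0.31 SE, limma adjusted p = 1.2e-04). For *ugt-26* the libraries held 11.8, 20.4 and 25.5 normalized CPM in *prdx-2* worms, against 39.3 to 106 (median 66.5) in WT worms (log2 fold change -1.78 ± 0.31 SE, limma adjusted p = 1.5e-04). For *ugt-30* they held 3.77, 4.71 and 5.58 normalized CPM in *prdx-2* worms, against 12.5 to 22.2 (median 16.9) in WT worms (log2 fold change -1.77 ± 0.35 SE, limma adjusted p = 8.8e-04). In these 4 genes and in *ugt-17* (-1.57), *ugt-47* (-1.17) and *ugt-6* (-1.01) all 3 *prdx-2* libraries were below WT. So they were for *ugt-64* (20.4, 38.2 and 41.2 normalized CPM in *prdx-2* worms, against 59.6 to 80.1, median 65.3 in WT worms; log2 fold change -1.09 ± 0.26 SE, limma adjusted p = 0.0041), although the call was lost without *prdx-2* replicate 1 (-0.77, adjusted p = 0.093). The last decrease called was that of *ugt-60* (-0.96).

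In the libraries labelled *ctl-1*, 5 of 58 members were lower and 0 higher than in WT worms (all genes: 1.57% and 1.05%; 18 members had an unadjusted p under 0.05 with limma, and edgeR on reads called 0 higher and 4 lower). They all lay below WT for 11 members and above for 2 (all genes: 7.45% and 3.21%), and 18 of 58 members had a log2 fold change above 0. The largest decrease was that of *ugt-63*, with 2.87, 4.55 and 8.77 normalized CPM in the libraries labelled *ctl-1*, against 18.1 to 35.6 (median 25.3) in WT worms (log2 fold change -2.22 ± 0.31 SE, limma adjusted p = 9.9e-06). For *ugt-64* they held 20.0, 22.1 and 22.7 normalized CPM, against 59.6 to 80.1 (median 65.3) in WT worms (log2 fold change -1.64 ± 0.26 SE, limma adjusted p = 7.0e-05). For *ugt-12* (WBGene00020592, chrV:4887165-4889629) they held 12.6, 13.4 and 15 normalized CPM, against 33.4 to 63.2 (median 41.1) in WT worms (log2 fold change -1.61 ± 0.24 SE, limma adjusted p = 2.8e-05). None of the 3 overlapped with WT. In the other 7 comparisons *ugt-12* was not called lower. The decrease of *ugt-30* (4.73, 4.94 and 8.71 normalized CPM in the libraries labelled *ctl-1*, against 12.5 to 22.2, median 16.9 in WT worms; log2 fold change -1.45 ± 0.35 SE, limma adjusted p = 0.016) was not called without *ctl-1* replicate 2 or 3, and the last was that of *ugt-17* (-0.78). Without *ctl-1* replicate 3 the decreases numbered 3. None of the 7 members raised in all 3 respiratory mutants was called here. For *ugt-19* the libraries labelled *ctl-1* held 9.09, 12 and 16.1 normalized CPM and for *ugt-62* 37.5, 41.9 and 57.4 normalized CPM. All 3 values of *ugt-62* were below WT (log2 fold change -0.98 ± 0.42 SE, limma adjusted p = 0.25).

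In *sod-1* worms 0 of 58 members were higher and 0 lower than in WT worms (all genes: 0.606% and 1.96%; 4 members had an unadjusted p under 0.05 with limma, and edgeR on reads called 0 higher and 0 lower and DESeq2 0 and 0). The median log2 fold change was -0.18, beside -0.01 over all genes, and 15 of 58 members had a value above 0. Only *ugt-64* had all 3 *sod-1* libraries on one side of WT, below it (48.6, 52.2 and 54 normalized CPM in *sod-1* worms, against 59.6 to 80.1, median 65.3 in WT worms; log2 fold change -0.40 ± 0.26 SE, limma adjusted p = 0.53; all genes: 2.74% below and 2.69% above). For 4 of the members raised in the respiratory mutants, the log2 fold changes in *sod-1* worms were -0.07 ± 0.32 (SE, limma adjusted p = 0.97) for *ugt-19*, -0.13 ± 0.26 (SE, limma adjusted p = 0.91) for *ugt-2*, -0.15 ± 0.42 (SE, limma adjusted p = 0.93) for *ugt-62* and -0.18 ± 0.33 (SE, limma adjusted p = 0.89) for *ugt-61*.

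The *sod-2* worms, which lack the main mitochondrial superoxide dismutase, were compared with the WT libraries of the second experiment. There 4 of 61 members were higher and 3 lower (all genes: 2.34% and 0.692%), and the libraries all lay above WT for 3 and all below for 3 members (all genes: 2.25% and 1.09%). Raised most was *ugt-19*, with 22.3 to 56.2 normalized CPM (median 31) in *sod-2* worms, against 10.4 to 15 (median 12.7) in WT worms (log2 fold change 1.4 ± 0.21 SE, limma adjusted p = 0.0016). For *ugt-62* the libraries held 144 to 323 normalized CPM (median 234.6) in *sod-2* worms, against 78.6 to 128 (median 99.6) in WT worms (log2 fold change 1.17 ± 0.19 SE, limma adjusted p = 0.0031). Neither gene overlapped with WT, and both were called without any single library and without *sod-2* replicates 2 and 4 together. For *ugt-2* the values were 10.9 to 31.1 normalized CPM (median 22.6) in *sod-2* worms, against 8.85 to 13 (median 10.3) in WT worms (log2 fold change 0.92 ± 0.22 SE, limma adjusted p = 0.041), and for *ugt-36* 1.35 to 3.02 normalized CPM (median 2.55) in *sod-2* worms, against 0.670 to 1.75 (median 0.798) in WT worms (log2 fold change 0.92 ± 0.20 SE, limma adjusted p = 0.026). Both overlapped with WT. The call of *ugt-2* was lost without WT replicate 1, 2, 3, 4, 5 or 6 or *sod-2* replicate 2, 3, 4 or 5, and that of *ugt-36* without WT replicate 1, 3 or 4 or *sod-2* replicate 2, 4 or 5. The libraries of *ugt-61* held 10.1 to 29.2 normalized CPM (median 19.3) in *sod-2* worms, against 6.53 to 14.8 (median 11.2) in WT worms, and the gene was not called (log2 fold change 0.77 ± 0.26 SE, limma adjusted p = 0.15).

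The decreases in *sod-2* worms were those of *ugt-63* (4.32 to 14.5 normalized CPM, median 11.9 in *sod-2* worms, against 19.6 to 60.7, median 28.1 in WT worms; log2 fold change -1.56 ± 0.32 SE, limma adjusted p = 0.018), *ugt-41* (7.88 to 23.2 normalized CPM, median 18.3 in *sod-2* worms, against 24.4 to 49.8, median 32.1 in WT worms; log2 fold change -1.07 ± 0.25 SE, limma adjusted p = 0.033) and *ugt-64* (45.9 to 61.4 normalized CPM, median 52.9 in *sod-2* worms, against 65.1 to 93, median 70.1 in WT worms; log2 fold change -0.47 ± 0.11 SE, limma adjusted p = 0.033). In the 3 genes every *sod-2* library was below every WT library. The call of *ugt-63* was lost without WT replicate 3, that of *ugt-41* without WT replicate 3, 4, 5 or 6 or *sod-2* replicate 3 or 4 and that of *ugt-64* without WT replicate 3, 4 or 5 or *sod-2* replicate 2, 4 or 5. The counts of the *sod-2* comparison depended on single libraries, and the shares of all genes called in these fits are not given here. The increases numbered 2 without WT replicate 1, 3 or 4 or *sod-2* replicate 2 or 4, and 9 without *sod-2* replicate 1. The decreases numbered 0 without WT replicate 3 and 1 without WT replicate 4 or 5 or *sod-2* replicate 4. Without *sod-2* replicates 2 and 4 together they were 2 and 0, and without replicates 2, 4 and 5 they were 1 (*ugt-19*) and 0, both choices made after seeing the data. In these replicates *ugt-57* stood at 35.7 and 29.2 and *ugt-65* at 43.3 and 28 normalized CPM, the highest of the *sod-2* libraries, against 0.114 to 11.1 (median 1.44) and 4.47 to 18.8 (median 6.75) in WT worms. Neither gene, both picked out after their values were seen, was called (log2 fold changes 2.58 and 1.23).

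Over all 8 comparisons, 46 of 61 members (75.4%) were called at least once, against 58.7% of the 14718 genes of either table, and 6 (9.84%) at least 5 times, against 2.98%. The comparisons of the first experiment share their WT libraries, and that with *sod-2* uses other WT libraries that match them singly (above). The shares were not tested against each other. The numbers called in 1, 2, 3, 4, 5 and 6 comparisons were 14, 13, 9, 4, 2 and 4, and 15 were never called. The 4 members called in 6 were *ugt-2*, *ugt-19*, *ugt-36* and *ugt-64*, and the 2 called in 5 were *ugt-26* and *ugt-62*. Those called higher in one comparison and lower in another were *ugt-4*, *ugt-12*, *ugt-19*, *ugt-23* and *ugt-41*. Of the members never called, *ugt-3*, *ugt-34* and *ugt-42* were tested against *sod-2* worms only, and the rest were *ugt-5*, *ugt-7*, *ugt-15*, *ugt-25*, *ugt-28*, *ugt-31*, *ugt-33*, *ugt-37*, *ugt-39*, *ugt-49*, *ugt-51* and *ugt-57*. At a WT level of 39.8 ± 7.42 normalized CPM, *ugt-49* was the most abundant of these, and its log2 fold changes in the first experiment lay between -0.42 and 0.30.

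The members lie on all 6 chromosomes, 38 of the 61 on chromosome V, 11 on IV, 5 on I, 4 on X, 2 on III and 1 on II (Ensembl annotation of WBcel235). With gaps of at most 20000 bases, 32 members form 9 groups of neighbours, and members of a group often differed in their response. Next to *ugt-19* on chromosome IV lies *ugt-20*, which was called in no other comparison than *nuo-6* (0.56; 0.21 in *isp-1*, 0.14 in *clk-1* and 0.30 in *prdx-2* worms). Next to *ugt-2* on chromosome V lies *ugt-1*, with log2 fold changes of -0.25 in *isp-1*, -0.49 in *clk-1* and 1.04 in *nuo-6* worms, of which only the last was called. In the group of *ugt-40*, *ugt-37*, *ugt-39*, *ugt-41* and *ugt-36*, neither *ugt-37* nor *ugt-39* was called in any comparison. Of the 7 neighbours *ugt-5*, *ugt-4*, *ugt-6*, *ugt-3*, *ugt-18*, *ugt-16* and *ugt-15*, *ugt-18* was higher and *ugt-4* and *ugt-16* lower in *daf-2* worms. Of the 6 neighbours *ugt-12*, *ugt-11*, *ugt-9*, *ugt-8*, *ugt-14* and *ugt-13*, 4 were higher (*ugt-8*, *ugt-11*, *ugt-13* and *ugt-14*) and *ugt-9* lower (-0.71) in *daf-2* worms. The neighbours *ugt-55* and *ugt-56* were called in the same 3 comparisons. In the group of *ugt-26*, *ugt-27*, *ugt-28* and *ugt-25* on chromosome I, *ugt-26* was lower and *ugt-27* higher in *nuo-6* and *daf-2* worms. Members in such groups can be similar in sequence, and how reads that fit several copies were counted was not tested. The annotation has another gene on the opposite strand over 14 members and on the same strand over 9, among them *ugt-40* and *ugt-37*, which overlap each other. Which strand was counted is not given in the sources used here.

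Of 8 genes that make or handle UDP-sugars and glucuronides, none was called in *clk-1*, *sod-1*, *prdx-2* or *sod-2* worms or in the libraries labelled *ctl-1*. Of all genes, 0.606% to 6.51% were called higher and 0.692% to 6.51% lower in these comparisons. In *isp-1* worms *ugtp-1*, a nucleotide-sugar transporter gene, was higher (0.35) and none was lower (all genes: 11% and 10.3%). In *nuo-6* worms *ugtp-1* (0.45) and R05F9.6 (0.57) were higher and *sqv-7*, another nucleotide-sugar transporter gene, lower (-0.40; all genes: 22.5% higher and 14% lower). In *daf-2* worms *sqv-7* (-0.45) and Y105E8B.9 (-0.47) were lower and none was higher (all genes: 16.3% and 17.4%). The gene of UDP-glucose dehydrogenase, *sqv-4*, which makes UDP-glucuronic acid, was called in none of the 8 comparisons.

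Of the ATP-driven exporters (P-glycoproteins, pgp, and multidrug resistance proteins, mrp), 21 of 23 listed genes were tested in the first experiment and 22 in the second. The numbers higher and lower were 4 and 4 (all genes: 11% and 10.3%) in *isp-1*, 0 and 2 (all genes: 6% and 2.27%) in *clk-1*, 5 and 4 (all genes: 22.5% and 14%) in *nuo-6* and 2 and 6 (all genes: 17.4% and 16.3%) in *daf-2* worms. They were 0 and 1 (all genes: 0.606% and 1.96%) in *sod-1* worms, 2 and 0 (all genes: 1.05% and 1.57%) in the libraries labelled *ctl-1*, 6 and 2 (all genes: 6.51% and 6.51%) in *prdx-2* and 1 and 0 (all genes: 2.34% and 0.692%) in *sod-2* worms. The largest decreases were those of *pgp-5* (-1.76 in *isp-1*, -2.01 in *nuo-6*, -3.44 in *daf-2* and -1.64 in *prdx-2* worms) and *pgp-6* (-1.59 in *clk-1*, -2.15 in *isp-1*, -2.60 in *nuo-6* and -2.80 in *daf-2* worms). In *nuo-6* and *isp-1* worms *pgp-9* was raised (1.5 and 1.98), and *pgp-8* was raised in *isp-1*, *nuo-6* and *prdx-2* worms and in the libraries labelled *ctl-1* (1.16, 1.24, 1.43 and 2.83).

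Of 12 measured genes of 13 listed as regulators of detoxification genes and of the intestine (transcription factors, cofactors and *wdr-23*), none was called lower in any of the 8 comparisons, in which 0.692% to 16.3% of all genes were. The numbers higher were 2 (all genes: 11%) in *isp-1*, 1 (all genes: 6%) in *clk-1*, 6 (all genes: 22.5%) in *nuo-6*, 5 (all genes: 17.4%) in *daf-2*, 1 (all genes: 6.51%) in *prdx-2* and 1 (all genes: 2.34%) in *sod-2* worms, and 0 in *sod-1* worms and the libraries labelled *ctl-1* (all genes: 0.606% and 1.05%). The gene of WDR-23, which keeps the stress factor SKN-1 low, was higher in *isp-1*, *clk-1*, *nuo-6* and *prdx-2* worms (*wdr-23*: 0.35, 0.41, 0.41 and 1.05). The *skn-1* transcript was called only in *nuo-6* worms (0.55), and *pqm-1*, the gene of a transcription factor that co-regulates DAF-16 target genes, was higher in *nuo-6* and *daf-2* worms (1.34 and 1.34).

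Marker genes of all 8 tissue lists were detected in these whole-worm libraries, and some were called against WT. Of all genes, 11% were higher and 10.3% lower in *isp-1*, 6% and 2.27% in *clk-1* and 22.5% and 14% in *nuo-6* worms. The shares were 17.4% and 16.3% in *daf-2*, 0.606% and 1.96% in *sod-1* and 6.51% and 6.51% in *prdx-2* worms. They were 1.05% and 1.57% in the libraries labelled *ctl-1* and 2.34% and 0.692% in *sod-2* worms. The counts of these short lists were not tested against these shares. Of 6 measured intestinal genes (of 7 listed), *ges-1* was higher in *daf-2* worms (0.45) and *act-5* lower in *prdx-2* worms (-1.51), and the summed level was 3810.2 to 5313 normalized CPM in *isp-1*, 2854 to 5949 in *clk-1*, 4602 to 6872 in *nuo-6* and 3782 to 7782 in *daf-2* worms, against 3888 to 8352 in WT worms. The intestinal sum was 3522 to 6000 in *sod-1* and 4135 to 5680 in *prdx-2* worms. In the libraries labelled *ctl-1* it was 3511 to 3755, all below WT. The total normalized CPM was itself lower in these libraries (851554 to 904558) and in *prdx-2* libraries (861789 to 933694) than in WT libraries (942177 to 1148622). Whether a sum lies outside the WT range can therefore depend on the authors' scaling. The intestinal sum in *sod-2* worms was 3868 to 6892, against 3798 to 6320 in their WT worms. Of 4 yolk genes, 1 was lower in *isp-1*, 2 in *daf-2*, 1 in *prdx-2* and 1 in *sod-2* worms and 2 in the libraries labelled *ctl-1*. Their summed level was 22030.3 to 60432 normalized CPM in *isp-1*, 22848 to 55984 in *clk-1*, 8631 to 92856 in *nuo-6* (5 of 6 libraries above the highest WT library), 20696 to 31501 in *sod-1*, 3588 to 51695 in *daf-2* and 8384 to 28962 in *prdx-2* worms and 5127 to 14603 in the libraries labelled *ctl-1*, against 21920.3 to 39281 in WT worms, and 915 to 23382 in *sod-2* worms, against 18264 to 41017 in their WT worms. Of 5 hypodermal genes, 2 were higher in *nuo-6* worms, although the median log2 fold change of the 5 there was -0.40. In the libraries labelled *ctl-1*, *col-19* was lower (-2.07). The summed level of the hypodermal genes was 824 to 1287 normalized CPM in the libraries labelled *ctl-1* and 1623 to 1756 in *prdx-2* worms. Both ranges lay below the 1916 to 3525 of WT worms. Of 4 germline genes, 1 was lower in *isp-1*, 3 in *nuo-6*, 2 in *daf-2* and 1 in *prdx-2* worms. Their summed level in *nuo-6* worms was 1046 to 1506 normalized CPM, all below the 1741 to 2319 of WT worms. Of 4 body muscle genes, 1 was higher in *nuo-6* and 3 were lower in *prdx-2* worms. Their summed level in *prdx-2* worms was 8563 to 9121 normalized CPM, all below the 9674 to 17235 of WT worms. Of 5 neuronal genes, 2 were higher in *nuo-6*, 1 was higher in *daf-2* and 1 was lower in *sod-1* worms. Their summed level in *prdx-2* worms was 334 to 352 normalized CPM, all above the 234 to 318 of WT worms. Of 5 sperm genes, 2 were lower in *isp-1* and 1 was higher in *nuo-6* worms, and of 5 oocyte and eggshell genes, 1 was lower in *nuo-6* and 2 in *daf-2* worms. The summed level of the sperm genes in *sod-1* worms was 137 to 145 normalized CPM, all above the 65.2 to 130 of WT worms. Yolk apart, the sums of these tissues in all other groups overlapped with WT. No listed marker other than the genes counted above was called against WT. The part of these differences in the values of the ugt genes was not tested.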

How the data were processed

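RNA of 51 libraries (39 in the first experiment, 12 in the second), each from a biological replicate, was analysed from the deposited tables. Per the labels, libraries were made with a stranded mRNA kit, and the submitters' processing notes name bcl2fastq 2.18, FastQC 0.11.5, STAR 2.5.2b, edgeR 3.20.1 and WBcel235. The main tables hold a signal computed by the authors, CPM with TMM scaling, after a filter on low genes whose rule is not given in the sources used here. Of the values, 99.971% to 100% per library were whole multiples of 1 read (tolerance 0.05), so reads were recovered. Another table of the second experiment holds the deposited count of reads per gene, although its name says CPM, and was used only as an alternative. It lists 62 ugt genes of 16168.

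Values were tested as log2(normalized CPM + 0.5) with limma 3.58.1 (trend, two-sided) in R 4.3.3 on all genes of a table, all 39 libraries in one fit and the 12 in another, and called at a Benjamini-Hochberg FDR below 0.05. Fold changes on this scale understate those of low genes. For each gene, a p-value sets a difference of means against a spread between libraries that all groups of the fit share. The SE is therefore not the spread of a single strain. The fits were tested on simulated data. Members and lists (UDP-sugar genes, exporters, regulators, markers of 8 tissues) were chosen with earlier results of these data known. Members named with full values were, per comparison, the 3 largest increases and 3 largest decreases among called members averaging at least 1 normalized CPM whose libraries did not overlap with WT, and those called in at least 5 of 8 comparisons or in both directions. Exon lengths and positions came from the Ensembl 115 annotation of WBcel235. Alternatives were pseudocounts of 0.1 and 1, a minimum mean of 1 normalized CPM, an FDR of 0.01, DESeq2 size factors, DESeq2 1.42.0 and edgeR 4.0.16 (quasi-likelihood) on reads, each mutant fitted with WT alone, each library left out, a replicate block for *sod-2* and between mutants, the count table for *sod-2*, and *daf-2* and *sod-2* without their libraries lowest in yolk genes. On recovered reads edgeR called, higher and lower, 3318 and 1994 genes in *nuo-6*, 2601 and 2157 in *daf-2*, 1517 and 1559 in *isp-1*, 840 and 340 in *clk-1*, 74 and 150 in *sod-1*, 167 and 204 in the *ctl-1* label, 951 and 912 in *prdx-2* and 396 and 100 in *sod-2* worms. No libraries of the same group and experiment were duplicates of one another. The match of WT libraries between the experiments is given above, and whether they came from the same RNA was not tested.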

Additional observations from a re-analysis of the deposited data

Results flagged for a closer look

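Among the members with full values, single libraries far from the rest of their group were looked for with Dixon's test. It was run on normalized CPM, not on the log2 scale of the other tests. By chance it flags about 1 in 20 groups if the values are normally distributed, which was not tested. In 105 groups of 6 libraries, 10 were found. They concern *ugt-18* in 4 groups: *nuo-6* replicate 2 held 58 normalized CPM and the next highest 2.89, *daf-2* replicate 5 held 27.7 and the next 4.59, *sod-2* replicate 5 held 9.51 and the next 2.18, and *isp-1* replicate 2 held 3.92 and the next 1.25. In *isp-1* replicate 2, *ugt-53* (1.52, next 3.32) and *ugt-64* (21.2, next 34.6) were also the lowest of their group, so that 3 of the 10 fell in this library. The others were *ugt-4* in *nuo-6* replicate 1 (17.5, next 9.41), *ugt-41* in *daf-2* replicate 6 (337, next 178), *ugt-61* in WT replicate 12 (6.62, next 10.1) and *ugt-63* in WT replicate 5 of the second experiment (60.7, next 33.8), all in normalized CPM.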

How the results depend on the processing

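No result with a test changed direction under any alternative. Fitting each mutant with WT alone gave 3 members lower in *clk-1* (1 in the main fit) and 8 in *isp-1* worms (5). DESeq2 gave 3 lower in *clk-1*, 8 lower in *isp-1*, 10 higher in *sod-2* (4) and 8 different between *isp-1* and *clk-1* (4), and edgeR gave 2 lower in *clk-1*. The causes of these shifts were not tested. Apart from edgeR against WT, the shares of all genes called under the alternatives and without single libraries are not given here. A changed count is therefore not a result about the ugt genes alone. At an FDR of 0.01 the counts were 0 lower in *clk-1*, 3 lower in *isp-1*, 3 lower in the libraries labelled *ctl-1* (5), 2 higher and 0 lower in *sod-2* (4 and 3), 2 different between *isp-1* and *clk-1*, 9 between *nuo-6* and *clk-1* (15), 4 between *nuo-6* and *isp-1* (10) and 19 between *daf-2* and *isp-1* (30). The count table gave 1 lower in *sod-2*. Without *sod-2* replicates 2 and 4 there were 2 higher and 0 lower, and 1 and 0 without replicate 5 as well. Leaving out 1 library at a time, the members lower ranged from 0 to 2 in *clk-1*, 3 to 8 in *isp-1*, 3 to 5 in the *ctl-1* label, 5 to 11 in *prdx-2* and 0 to 4 in *sod-2*, those higher from 2 to 9 in *sod-2*, and those different from 2 to 4 between *isp-1* and *clk-1* and from 6 to 12 between *nuo-6* and *isp-1*.

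Of 59 fold changes of named members, 14 lost their call in at least 1 fit that left out a library and 17 under at least 1 other alternative. For the comparisons of the first experiment with WT, no paired analysis was possible because its WT replicates are numbered 7 to 12 and the mutants from 1. Between *nuo-6*, *daf-2*, *isp-1* and *clk-1* libraries, all numbered 1 to 6, the deviations of same-numbered libraries correlated at -0.62 to 0.53 (15 of 36 above 0.1), so the numbers were not taken to pair them. With a replicate block in a fit of the mutants, added after seeing the data, the members different were 4 between *isp-1* and *clk-1*, 14 between *nuo-6* and *clk-1*, 8 between *nuo-6* and *isp-1*, and 36, 27 and 29 between *daf-2* and *clk-1*, *isp-1* and *nuo-6*. In the second experiment the deviations of same-numbered libraries correlated at -0.12 to 0.72 (mean 0.22). Those of the other 30 combinations correlated at -0.66 to 0.68 (mean -0.05). The ranges overlap and do not settle whether the numbers pair the libraries, and the main fit did not pair them. With a replicate block, 4 members were higher and 3 lower in *sod-2* worms, as without it, whereas *ugt-2*, *ugt-36* and *ugt-41* were not called (adjusted p = 0.063, 0.068 and 0.076). By CPM *ugt-46* ranked 4 in WT worms, and per kb 9. Members near 1 normalized CPM rest on few reads per library, and their fold changes move with the pseudocount.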

Other observations

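In WT worms *ugt-57*, picked out after its values were seen, differed widely between libraries. It stood at 11.47 normalized CPM in WT replicate 10 and between 0.721 and 1.99 in the other 5 WT libraries of the first experiment, and at 11.1 in WT replicate 2 of the second and between 0.114 and 2.14 in the other 5. These are the 2 libraries that matched each other most closely over all genes. The same pair held the highest WT values of *ugt-65*, 16.4 and 18.8.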
